A study of Arabidopsis thaliana with 13 samples.

Results

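Day 0 inflorescences were compared with vegetative seedlings of the same genotype, pAP1:AP1:GR ap1 cal, for the level of their miRNA genes. The members are the 107 miRNA genes, of 325 in the table, that reached at least 1 RPM (reads scaled to the mapped reads of each library) in at least 2 of the 5 libraries, 3 of seedlings and 2 of day 0 inflorescences. Both groups are Landsberg plants that carry the ap1 and cal mutations and a transgene in which the AP1 promoter drives a fusion of AP1 to the hormone-binding part of the glucocorticoid receptor. Both were left without dexamethasone (DEX), the steroid that lets the fusion protein enter the nucleus, so the day 0 samples are inflorescences before induction. In this mutant background the inflorescence is known to go on making meristems in place of flowers, so day 0 stands for this meristem-rich tissue rather than for opened flowers. The labels do not say which organs the seedling samples contain. Small RNA of 13 libraries was sequenced in the whole series, which also holds inflorescences on days 2, 4 and 8 of DEX treatment. The table lists miRNA genes only, so the tissue labels could not be checked against marker mRNAs.

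In plants, miRNAs are cut by DICER-LIKE1 from hairpin transcripts, loaded mainly into ARGONAUTE1, and guide the cleavage or the translational repression of mRNAs that pair with them almost along their whole length. Many old families target transcription factors of development. The best known shift with plant age is the fall of miR156, which holds back SPL transcription factors in young plants, and the rise of miR172, which represses AP2-like repressors of flowering. Further families pattern organs and leaves, respond to auxin, or follow the supply of copper, phosphate and sulfate.

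The mature sequences below are those of the loci with the largest differences and of the most abundant loci, taken from RefSeq on TAIR10.1. Capitals mark the seed, bases 2 to 8 counted from the 5′ end. All 107 members matched a locus there, 76 by the miRBase identifier and 31 by name, and 166 mature sequences with 133 different seeds were read.
miR319a: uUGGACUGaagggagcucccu
miR319b: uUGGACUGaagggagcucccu
miR319c: uUGGACUGaagggagcuccuu
miR159a: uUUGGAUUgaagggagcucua
miR159b-3p: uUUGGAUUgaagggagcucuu
miR159c: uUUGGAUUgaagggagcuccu
miR172d-3p: aGAAUCUUgaugaugcugcag
miR858a: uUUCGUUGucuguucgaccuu
miR166a-3p: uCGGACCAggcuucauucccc
miR165a-3p: uCGGACCAggcuucauccccc
miR156a-5p: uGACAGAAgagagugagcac
miR156a-3p: gCUCACUGcucuuucugucaga
miR156c-3p: gCUCACUGcucuaucugucaga
miR157c-5p: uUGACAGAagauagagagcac
miR157d: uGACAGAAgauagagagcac
miR408-3p: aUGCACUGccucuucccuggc
miR863-5p: uUAUGUCUuguugaucucaau
miR850: uAAGAUCCggacuacaacaaag
miR158a-3p: uCCCAAAUguagacaaagca
miR158b: cCCCAAAUguagacaaagca
miR161.1: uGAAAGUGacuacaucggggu
miR396a-5p: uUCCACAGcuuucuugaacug
The miR319 loci share the seed UGGACUG, the miR159 loci UUGGAUU, miR165 and miR166 CGGACCA, and the miR158 loci CCCAAAU. These sequences bear on the values, because the counting kept only reads with a single place in the genome. The sequence of miR319a and miR319b is found in full at 2 places, and that of miR156a-5p, which 5 tested MIR156 loci share, at 6 places. A read of exactly such a sequence was counted for no locus. The values of the MIR156 loci therefore stem from other reads of the hairpins, such as the 3p strands, each found at 1 place. For 21 of the 107 members, called end-dependent here, at least 1 mature sequence is unique or not depending on its last base or on the next base of the genome. For 65 members every mature sequence lies at 1 place in full.

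The seedling libraries were shallow. Their depth, estimated from the RPM that a single read is worth, was 148673 to 366691 mapped reads, against 1250213 and 1598991 in the day 0 libraries. A single read was thus worth 2.73 to 6.73 RPM in seedlings and 0.625 to 0.800 RPM on day 0. miRNA genes took 1.67 to 2.28% of the mapped reads in seedlings and 2.62 to 2.90% on day 0, and 62 to 79 against 123 and 128 of them were above 0. Across the 107 genes, which are not independent, Pearson's r of log2(RPM + 1) was 0.820 to 0.908 between seedling libraries, 0.981 between the day 0 libraries and 0.617 to 0.680 across. The seedlings were sequenced in another run than day 0, so the tissue and the run cannot be told apart. In whole tissue, fewer cells that make a miRNA and less of it per cell cannot be told apart either. The study's methods call the replicates of the miRNA libraries biological. The labels do not say whether they came from separate plants, so p-values describe only how far libraries spread. That spread was estimated over all libraries of the series, the later inflorescence libraries included. It is therefore not the spread of the shallow seedling libraries by themselves.

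The miRNA population of the inflorescence differed widely from that of the seedling. In a limma fit on log2(RPM + 1), 67 of the 107 genes (62.6%) passed an adjusted p of 0.05. Of these, 43 (40.2%) were higher on day 0 and 24 (22.4%) were lower, and the median difference over all 107 genes was 0.74 on the log2 scale. Among the 25 genes with a mean of at least 20 RPM, 22 (88%) passed when tested by themselves, 10 (40%) higher and 12 (48%) lower. Their median difference had the opposite sign, -0.56. The RPM rule was met through 1 group alone by 31 genes, 18 through day 0 and 13 through seedlings. Such genes had to differ, so their calls support nothing, and where they are described their differences are given without a p. Of the 76 other genes 25 (32.9%) were higher and 13 (17.1%) lower. The 5 libraries did not overlap between the groups for 70 genes (65.4%), 64 of which were called. Since low seedling values rest on few reads, the ratio of the pooled reads was also given an exact 95% counting interval. This interval excluded 1 for 48 of the called genes (44.9% of all tested), 27 higher (25.2%) and 21 lower (19.6%). It included 1 for 16 genes called higher and 3 called lower. Intervals of this kind cover counting error only.

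**Figure D1:**
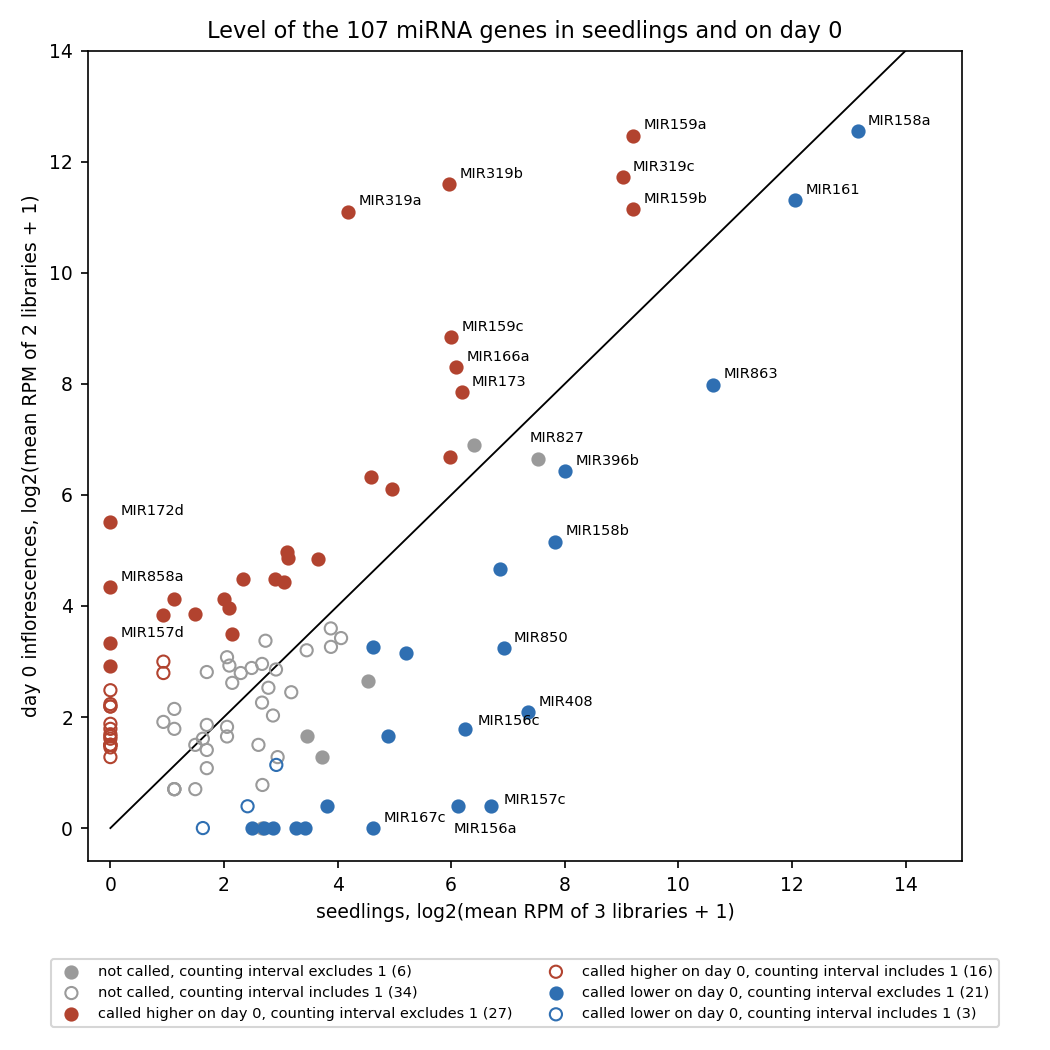
Mean level of the 107 genes in seedlings (horizontal) and on day 0 (vertical), both as log2(mean RPM + 1), with the line of equal levels. Colours give the call, filled points have a counting interval that excludes 1. Genes over the line such as MIR319a (17.2 RPM in seedlings, 2197 RPM on day 0) were higher on day 0, and the column of points at the left edge holds the 18 genes at 0 in every seedling library.

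The makeup of the counted miRNA reads changed from MIR158a and MIR161 in seedlings to MIR159 and MIR319 loci on day 0. The 6 loci of miR159 and miR319 together took 8.74, 14.6 and 6.87% of the RPM of all miRNA genes in the seedling libraries and 60.9 and 62.8% in the day 0 libraries. The lowest day 0 value lay far over the highest seedling value. This share was 54.6 to 59.5% in the day 2 libraries, of the run of day 0. It was 40.9 to 48.0% in those of days 4 and 8, of another run. MIR158a alone held 47.6% ± 7.14 (SD, n = 3) of the miRNA reads in seedlings and 21.8% ± 0.943 (SD, n = 2) on day 0. MIR161 went from 22.9% ± 3.32 to 9.18% ± 0.464 and MIR863 from 8.32% ± 0.593 to 0.912% ± 0.0789, with the same n. In the other direction MIR159a went from 3.25% ± 1.47 to 20.5% ± 0.360 and MIR319b from 0.340% ± 0.194 to 11.2% ± 0.290. Such shares sum to 100% in each library, so a higher share of some loci lowers those of the others.

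**Figure D2:**
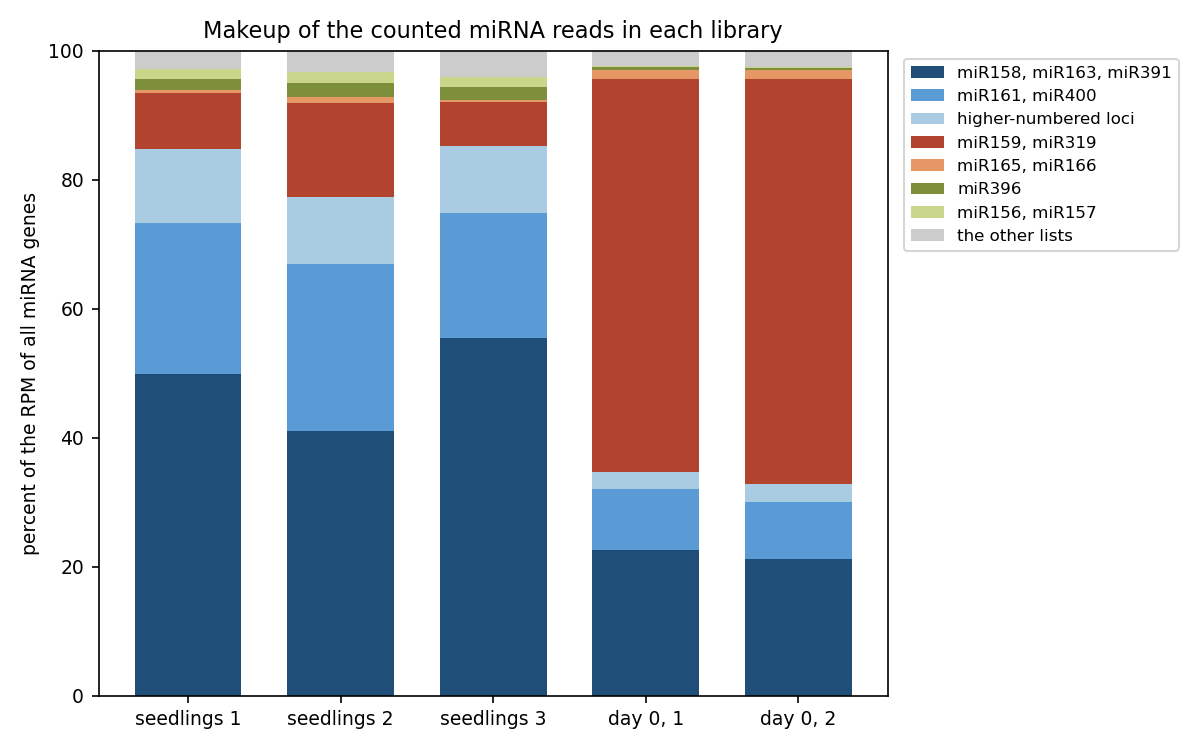
Percent of the RPM of all miRNA genes taken by groups of loci in each of the 3 seedling and 2 day 0 libraries (stacked bars, 1 bar a library). The miR159 and miR319 loci held 6.87 to 14.6% in seedlings and 60.9 and 62.8% on day 0.

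All 6 loci of miR159 and miR319 were higher on day 0, against 40.2% of all tested genes. miR319 targets TCP transcription factors that restrain cell division in leaves and petals, and miR159 targets GAMYB-like MYB factors that act in anthers and seeds. MIR319a (AT4G23713, chr4:12352956-12353131) was counted at 27.3, 6.73 and 17.7 RPM in the seedling libraries and 2192 and 2203 RPM in the day 0 libraries. It had the largest difference of all members, 7.10 ± 0.38 on the log2 scale (SE, adjusted p = 2.79e-09), with means 127-fold apart. MIR319b (AT5G41663, chr5:16660469-16660640), whose mature sequence is the same, was at 40.9, 94.2 and 49.6 RPM and 3314 and 2888 RPM. No seedling library of either locus came near a day 0 library, and the difference of MIR319b was 5.72 ± 0.31 (adjusted p = 2.79e-09). MIR319c (chr2:17029701-17029899), whose sequence lies at 1 place, was much more abundant in seedlings, at 469, 666 and 418 RPM, and reached 3202 and 3533 RPM on day 0. Its difference was smaller, 2.73 ± 0.25 (adjusted p = 5.71e-07). The RPM of the 3 loci summed to 597 ± 149.6 in seedlings and 8666 ± 58.8 on day 0 (SD), a difference of 3.89 ± 0.21 (adjusted p = 4.93e-09). This sum lacks the reads of exactly the sequence that miR319a and miR319b share.

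MIR159a (AT1G73687, chr1:27713233-27713416) was at 472, 821 and 479 RPM in seedlings and 6029 and 5317 RPM on day 0, 9.61-fold higher by its means (3.31 ± 0.22, adjusted p = 2.91e-08). MIR159b was at 450.0, 774 and 535 RPM and 2489 and 2063 RPM (1.99 ± 0.23, adjusted p = 5.33e-06). MIR159c, the least abundant and the only locus of the family without an end-dependent sequence, was at 40.9, 80.7 and 67.4 RPM and 446 and 466 RPM (2.89 ± 0.26, adjusted p = 5.71e-07). MIR159a and MIR159b stood at like levels in seedlings, while on day 0 both libraries had more MIR159a. The call of MIR159b was lost and its direction turned in the authors' quantile-normalized values, where the difference was -0.76.

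The loci of miR156 and miR157, which hold back SPL factors in the juvenile phase, were called in both directions. Of 8 tested loci 5 were lower, against 22.4% of all tested genes, and 1 was higher, against 40.2%. MIR156a, MIR156f and MIR157c met the RPM rule through the seedlings alone and MIR157d through day 0 alone, which fixed their directions. Of the 4 others 2 were lower, MIR156b and MIR156c, against 17.1% of such genes. MIR156a (AT2G25095, chr2:10676451-10676573) was at 43.6, 94.2 and 67.4 RPM in seedlings and 0 and 0.625 RPM on day 0, that is 49 reads against 1 (-5.70 ± 0.66). MIR156c (chr4:15415418-15415521) was at 84.5, 87.4 and 53.2 RPM and 2.40 and 2.50 RPM (-4.43 ± 0.50, adjusted p = 4.40e-06). Every seedling library of these loci lay over 40 RPM and every day 0 library under 3 RPM. MIR156f was also lower (-3.36 ± 0.50), and so was MIR156b, from 19.1, 20.2 and 31.9 RPM to 10.4 and 6.88 RPM (-1.35 ± 0.48, adjusted p = 0.0260). The call of MIR156b was lost with array weights, and without the seedling library 3 or either day 0 library. These weights are set for the seedlings as a group and the other libraries as a group, lower where the libraries spread more. MIR156d, at 13.6, 6.73 and 46.1 RPM and 5.60 and 5.0 RPM, missed the threshold (adjusted p = 0.0664) although its libraries did not overlap. MIR156j, which lies opposite an exon of SPL9 and had 2 reads in each group, was not called either. The RPM of all MIR156 loci summed to 206 ± 30.5 in seedlings and 17.6 ± 1.07 on day 0, a difference of -3.47 ± 0.33 (adjusted p = 9.95e-07), and this sum lacks the reads of exactly miR156a-5p.

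The 2 tested MIR157 loci went in opposite directions. MIR157c (AT3G18217, chr3:6244500-6244716) was at 84.5, 74.0 and 152 RPM in seedlings and 0 and 0.625 RPM on day 0. Its difference was the most negative of all members (-6.29 ± 0.60), from 85 reads to 1, a ratio of 304 with a counting interval of 53.1 to 12135. MIR157d (AT1G48742, chr1:18026811-18027031) was at 0 in all seedling libraries and at 8.80 and 9.38 RPM on day 0 (3.33 ± 0.48). Against the floor of 3 reads over the seedling group, 3.76 RPM, it was at least 2.42-fold higher. The sequence of miR157d is found at 4 places in full and that of miR157c-5p at 3.

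MIR172d (AT3G55512, chr3:20587904-20588027), a locus of the family that targets AP2-like genes, was at 0 RPM in each seedling library and at 44.0 and 45.7 RPM in the day 0 libraries. It was at least 11.9-fold higher on day 0 against the same floor (5.52 ± 0.36), with 0 reads in seedlings and 128 on day 0. The other tested locus, MIR172e, was at 0, 6.73 and 0 RPM and 4.0 and 1.25 RPM and was not called (adjusted p = 0.408). The remaining loci of the family did not reach the RPM rule, MIR172a among them. The sequence of miR172d-3p lies at 2 places in full, so reads of exactly this sequence are in no value.

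**Figure D3:**
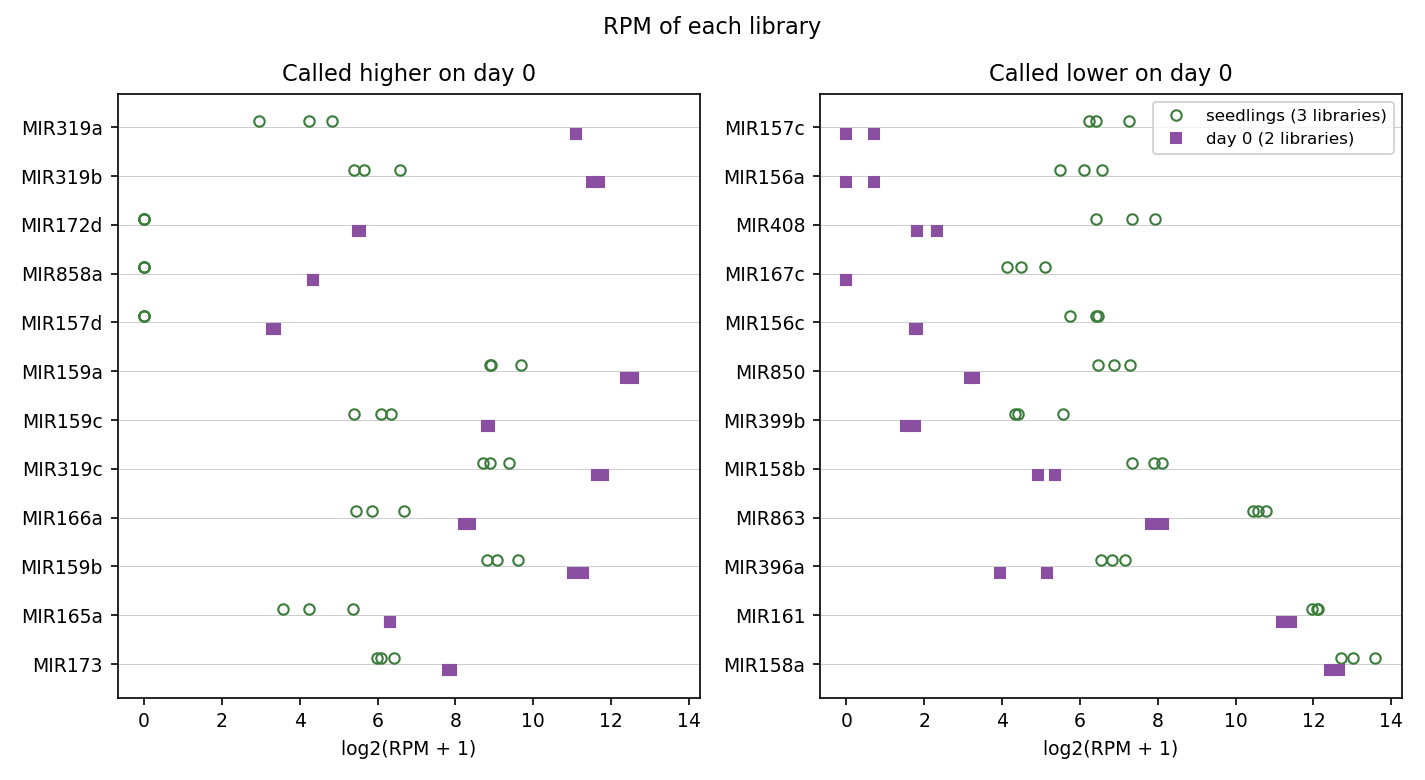
RPM of each library for 24 named genes as log2(RPM + 1) (horizontal), with 3 seedling libraries (open circles) and 2 day 0 libraries (squares) a gene. The groups are apart in every row, from a wide gap for MIR319a and MIR157c to a narrow one for MIR158a, whose lowest seedling library (6693 RPM) is close to the highest day 0 library (6512 RPM).

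Loci of miR165 and miR166, which restrict HD-ZIP III factors such as PHABULOSA and REVOLUTA and so set the upper side of leaves and the vascular pattern, were called in both directions. Of 4 tested loci 3 were higher, against 40.2% of all tested genes, and 1 lower, against 22.4%. The counting interval excluded 1 for 2 of the higher ones, MIR166a and MIR165a, and the third, MIR165b, met the RPM rule through day 0 alone. MIR166a (AT2G46685, chr2:19176108-19176277) was at 57.3, 101 and 42.5 RPM in seedlings and 331 and 296 RPM on day 0 (2.30 ± 0.31, adjusted p = 2.06e-05). MIR165a was at 10.9, 40.4 and 17.7 RPM and 78.4 and 78.8 RPM (1.92 ± 0.40, adjusted p = 0.00122). The shallowest seedling library was the highest of its group for both genes. MIR165b, at 0 in all seedlings, and MIR166e, at 4 reads against 3, were called in opposite directions with counting intervals that included 1, and the call of MIR166e held in 8 of 14 alternative analyses (other scalings, offsets, filters or libraries). The sequence of miR166a-3p lies at 7 places in full and that of miR166a-5p at 2, so reads of exactly these sequences are in no value. The sequence of miR165a-3p also lies at 2 places in full and is end-dependent, while that of miR165a-5p lies at 1.

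Of the 3 loci of miR164, which draws organ boundaries by acting on the CUC genes, MIR164c and MIR164a were called higher, against 40.2% of all tested genes. MIR164c was at 5.45, 6.73 and 10.6 RPM in seedlings and 33.6 and 27.5 RPM on day 0 (1.91 ± 0.37, adjusted p = 6.97e-04). MIR164a was at 2.73, 0 and 0 RPM and 9.60 and 4.38 RPM (2.28 ± 0.62, adjusted p = 0.00588), from 1 read in seedlings, so its counting interval included 1. The call of MIR164a was lost in the 5 libraries by themselves, with scaling to the miRNA reads and without the day 0 library 1. MIR164b, with 10.9, 6.73 and 0 RPM and 6.40 and 3.13 RPM, overlapped between the groups.

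Among the 7 tested loci of the auxin response, 1 was called higher, against 40.2% of all tested genes, and 2 lower, against 22.4%. Both lower ones, MIR167c and MIR393b, met the RPM rule through the seedlings alone. The MIR167 loci, which target the auxin response factors ARF6 and ARF8, parted. MIR167c (AT3G04765, chr3:1306622-1306781) was at 16.4, 33.6 and 21.3 RPM in seedlings and at 0 in both day 0 libraries, at least 22.6-fold lower on day 0 against the floor of 3 reads over that group, 1.05 RPM (-4.57 ± 0.48). MIR167a was at 57.3, 47.1 and 81.5 RPM and 114 and 90.7 RPM. It was only just called (0.74 ± 0.31, adjusted p = 0.0492), lay at the median of all members, and kept the call in 3 of 15 alternatives. MIR393b, which targets the TIR1 family of auxin receptors, was called lower from 5.45, 13.5 and 0 RPM to 0 (-2.18 ± 0.75), and the call was lost in the 5 libraries by themselves and without the seedling library 1 or either day 0 library. The 3 loci of miR160, which targets ARF10, ARF16 and ARF17, and MIR167d were not called, at 1 to 4 seedling reads each.

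Of the 3 triggers of trans-acting siRNAs 2 were called higher, against 40.2% of all tested genes, 1 of them, MIR390b, through day 0 alone. MIR173, which starts the TAS1 and TAS2 siRNAs, was at 62.7, 67.3 and 85.1 RPM in seedlings and 224 and 234 RPM on day 0 (1.67 ± 0.28, adjusted p = 1.86e-04). MIR390b, a locus of the miRNA that starts the TAS3 siRNAs with ARGONAUTE7, was at 0 in the seedlings and at 2.40 and 5.0 RPM (2.18 ± 0.51), with a day 0 mean under the seedling floor of 3.76 RPM. MIR390a, at 5.45, 0 and 14.2 RPM and 5.60 and 6.88 RPM, was not called. Of the loci that act on the small RNA machinery itself, MIR403, which targets ARGONAUTE2, was higher, at 21.8, 47.1 and 21.3 RPM and 73.6 and 61.9 RPM (1.24 ± 0.36, adjusted p = 0.00852). MIR168a, which targets ARGONAUTE1, had 16.4, 0 and 24.8 RPM and 12.8 and 9.38 RPM, and MIR162a and MIR162b, which target DICER-LIKE1, had at most 13.6 RPM in these libraries. None of these 3 was called. The call of MIR403 was lost with median-ratio scaling, with scaling to the miRNA reads, in the 5 libraries by themselves and without the day 0 library 1.

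Of the copper response MIR408 was much lower on day 0, and the 3 other tested loci were called lower too, against 22.4% of all tested genes. These 3, MIR397a, MIR398b and MIR398c, met the RPM rule through the seedlings alone, which fixed their direction. miR397, miR398 and miR408 are made when copper is short and target copper proteins such as laccases, superoxide dismutases and plantacyanin. MIR408 (AT2G47015, chr2:19319814-19320031) was at 84.5, 161 and 241 RPM in seedlings and 4.0 and 2.50 RPM on day 0, 49.9-fold lower by its means (-5.16 ± 0.60, adjusted p = 5.33e-06). It overlaps an exon of AT2G47020 on the opposite strand. MIR398c was at 2.73, 6.73 and 7.09 RPM and at 0 in both day 0 libraries (-2.62 ± 0.37), at least 5.24-fold lower against 1.05 RPM. MIR398b and MIR397a, with 3 and 2 seedling reads and none on day 0, lost their calls in 4 and 6 of 14 alternatives, among them the 5 libraries by themselves and those without either day 0 library. The counting interval of MIR397a included 1. The reads of MIR398b and MIR398c lack those of exactly miR398b-3p and of exactly miR398b-5p, since both loci share these sequences.

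Both MIR396 loci, which target the growth-regulating factors (GRF) of dividing tissue, were lower on day 0, against 22.4% of all tested genes. MIR396a (chr2:4142323-4142473) was at 92.7, 141 and 113 RPM in seedlings and 34.4 and 14.4 RPM on day 0 (-2.30 ± 0.36, adjusted p = 8.48e-05). MIR396b was at 218, 209 and 340.4 RPM and 104 and 66.9 RPM (-1.57 ± 0.57, adjusted p = 0.0275). The groups did not overlap for either gene, and the call of MIR396b held in 8 of 15 alternatives. The summed RPM of the family gave -1.78 ± 0.29 (adjusted p = 1.57e-04). Of the nutrient loci, MIR399b, of a family that acts on the phosphate regulator PHO2, was lower, at 19.1, 20.2 and 46.1 RPM and 2.40 and 1.88 RPM (-3.12 ± 0.58, adjusted p = 4.39e-04). MIR827, which acts on the phosphate regulator NLA, was at 128, 101 and 319 RPM and 92.0 and 106 RPM. Its groups overlapped and it was not called (adjusted p = 0.167).

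The 3 most abundant seedling loci, MIR158a, MIR161 and MIR863, were lower on day 0 to very unlike degrees. The next 3 by their seedling mean, MIR159a, MIR159b and MIR319c, were the higher ones described above. MIR863 (AT4G13494, chr4:7846597-7846899) was at 1529.9, 1392 and 1762 RPM in seedlings and 281 and 225 RPM on day 0, 6.18-fold lower by its means (-2.63 ± 0.24, adjusted p = 5.71e-07). MIR850 (chr4:7845707-7845927), which lies next to MIR863 on the same strand, was at 117, 87.4 and 156 RPM and 8.80 and 8.13 RPM (-3.64 ± 0.36, adjusted p = 1.13e-06). MIR158b was at 240.0, 161 and 277 RPM and 40.0 and 29.4 RPM (-2.65 ± 0.29, adjusted p = 3.19e-06). The groups were well apart for all 3 genes. MIR158a (chr3:3366331-3366430), the most abundant member of both tissues, was at 8323, 6693 and 12359 RPM and 6512 and 5537 RPM, a difference of only -0.56 ± 0.23 (adjusted p = 0.0473). MIR161, which targets pentatricopeptide repeat (PPR) genes, was at 4022, 4345 and 4425 RPM and 2758 and 2321 RPM (-0.75 ± 0.19, adjusted p = 0.00410). The call of MIR158a held in 6 of 15 alternatives, and that of MIR161 was lost only without the day 0 library 2.

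MIR858a (AT1G71002, chr1:26773539-26773725), whose miRNA targets MYB factors of flavonol synthesis, was at 0 in every seedling library and at 19.2 and 19.4 RPM on day 0. It was at least 5.13-fold higher against the seedling floor (4.34 ± 0.34). The loci of miR170 and miR171, which target the HAIRY MERISTEM factors of the SCL group, had at most 2 seedling reads. MIR171c and MIR170, the latter through day 0 alone, were called higher with counting intervals that included 1, and MIR171b was not called. MIR169a, the only tested locus that targets NF-YA subunits, had 8.18, 0 and 28.4 RPM and 1.60 and 1.25 RPM, with overlap, and was not called (adjusted p = 0.226).

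**Figure D4:**
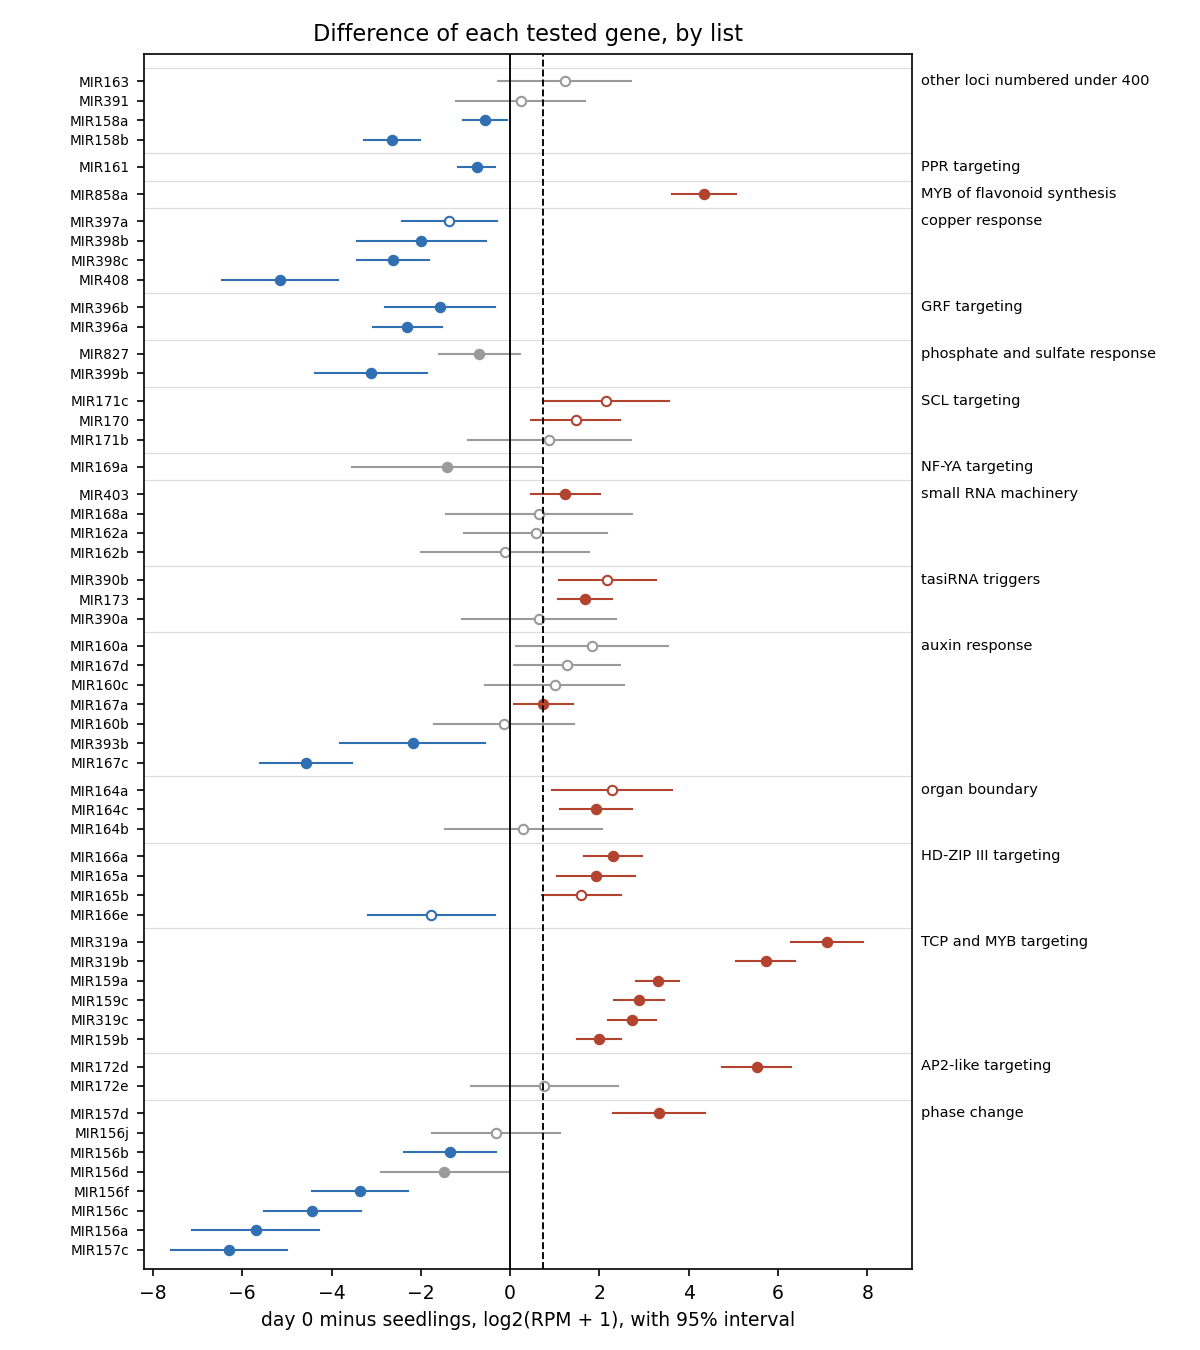
Difference between day 0 and seedlings on the log2(RPM + 1) scale with its 95% interval for each tested gene of the lists by target or role (rows, grouped by list). Red is called higher, blue called lower, grey not called, and filled points have a counting interval that excludes 1. The dashed line is the median of all 107 genes, 0.74, and the 6 miR159 and miR319 loci lie to its right while the miR156, copper and miR396 loci lie to the left of 0 when called.

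Of the 52 tested loci of higher-numbered, mostly younger families in no other list, 23 were higher (44.2%, near the 40.2% of all tested genes) and 6 lower (11.5%, against 22.4%), with a median difference of 1.09. Of the higher ones 12 met the RPM rule through day 0 alone, and of the lower ones 3 through the seedlings alone. The counting interval excluded 1 for 12 of the higher and 5 of the lower ones. Together these loci held 10.7% ± 0.590 of the miRNA reads in seedlings and 2.67% ± 0.113 on day 0, most of it MIR863 in seedlings. MIR773a was at 5.45, 6.73 and 0 RPM in seedlings and 19.2 and 23.8 RPM on day 0 (2.60 ± 0.67, adjusted p = 0.00437). MIR781b was at 2.73, 13.5 and 7.09 RPM and 27.2 and 28.8 RPM (1.93 ± 0.63, adjusted p = 0.0174). Both had no overlap, at few seedling reads, and MIR773a was listed at 0 in the third seedling library. The call of MIR781b held in 8 of 14 alternatives and was lost with array weights, with scaling to the miRNA reads, in the 5 libraries by themselves and without the seedling library 1 or either day 0 library. That of MIR773a was lost in the 5 libraries by themselves and with scaling to the miRNA reads. MIR829 and MIR5650 were at 0 in both day 0 libraries and at 5.45, 13.5 and 7.09 RPM and 8.18, 6.73 and 14.2 RPM in the seedling libraries. They were at least 8.23-fold and 9.21-fold lower against 1.05 RPM.

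Genes without a read in a whole group need care at this depth. All 18 genes at 0 in every seedling library were called higher, but for 13 of them the day 0 mean lay under 3.76 RPM, the level that 3 reads over the seedling group would give. A level of that size could be missed in the seedlings. The other 5 were MIR172d, MIR858a, MIR157d, MIR8165 at 5.60 and 7.50 RPM and MIR5014a at 4.80 and 4.38 RPM. Of the 8 genes at 0 in both day 0 libraries, 7 were called lower. The 18 genes are those that met the RPM rule through day 0 alone, and of the 13 that met it through the seedlings alone 11 were called lower.

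Summed over the loci of each family, 50 of 81 families (61.7%) were called, 34 (42%) higher and 16 (19.8%) lower. These counts include families that met the RPM rule through 1 group alone, such as MIR858 and MIR5650. Such families had to differ, so their calls support nothing. The sums kept the directions of the leading loci. The MIR159 family was at 1239.6 ± 382 RPM in seedlings and 8406 ± 791 RPM on day 0 (2.80 ± 0.21, adjusted p = 1.09e-07). The MIR172 family was at 2.24 ± 3.88 RPM and 47.4 ± 0.769 RPM (4.62 ± 0.69), and its day 0 sum was mostly MIR172d. The MIR164 family was at 14.4 ± 4.30 RPM and 42.3 ± 10.3 RPM (1.51 ± 0.32, adjusted p = 0.00153). Where loci of a family parted, the sum could hide it. The MIR157 family was lower (-3.26 ± 0.39) with MIR157d higher, and its seedling sum was MIR157c alone. The MIR167 family was not called (0.28 ± 0.25, adjusted p = 0.356) with MIR167c lower. MIR172d and MIR157c met the RPM rule through 1 group alone, so the sums of MIR172 and MIR157 are given without a p.

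The later inflorescence libraries, which come from the run of day 0, run 2 (day 2), or from run 3 (days 4 and 8), give the spread of the same loci outside the compared libraries. MIR319a stayed far over its seedling level, at 1801 ± 165 RPM (SD, n = 3) on day 2, 2941 ± 224 (n = 2) on day 4 and 2411 ± 120.3 (n = 3) on day 8. MIR319b, with the same mature sequence, was at 2753 ± 262 RPM on day 2 but at 145 ± 27.6 and 57.7 ± 10.5 RPM on days 4 and 8, the last of these close to the seedling mean of 61.6 RPM. MIR159b likewise was at 2234 ± 187, 591 ± 45.1 and 608 ± 86.8 RPM. MIR781b was at 27.0 ± 4.27, 1.13 ± 0.0672 and 1.79 ± 1.55 RPM. All 4 loci are end-dependent, and for the last 3 of them the level fell where the run changed. Every MIR319a library of days 4 and 8 (2275 RPM or more) lay over those of days 0 and 2 (2203 RPM or less). Of the 21 end-dependent members 10 had every library of days 4 and 8 under every library of days 0 and 2, against 1 of the 86 others, MIR167d. The reverse order was seen for 2 of the 21, MIR319a among them, and 8 of the 86. Besides MIR319b, MIR159b and MIR781b, the 10 were MIR159a, MIR164a, MIR167a and MIR403, also called higher, MIR396b and MIR399b, called lower, and MIR827. MIR164a was at 7.96 ± 2.60 RPM on day 2 and at 0 and 0.498 ± 0.446 RPM on days 4 and 8. MIR167a was at 95.5 ± 17.3, 20.4 ± 5.99 and 64.0 ± 11.2 RPM, MIR396b at 56.7 ± 14.4, 2.64 ± 3.74 and 11.0 ± 1.15 RPM and MIR827 at 127 ± 23.7, 19.6 ± 6.34 and 30.2 ± 7.54 RPM. Days 4 and 8 cannot be told apart from their run, and the part of the run in the difference of these loci between seedlings and day 0 was not tested. MIR319c and MIR159c, without such a sequence, stayed over every seedling library in all later libraries, as did MIR166a and MIR172d. MIR157c was at 0.245 ± 0.424, 0.540 ± 0.763 and 3.36 ± 2.43 RPM and MIR863 at 248 ± 60.0, 269 ± 61.4 and 537 ± 38.6 RPM, under the seedlings throughout. Without the 21 end-dependent members, 52 of 86 genes were called, against 67 of all 107 (62.6%). The 52 include genes that met the RPM rule through 1 group alone, such as MIR172d.

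**Figure D5:**
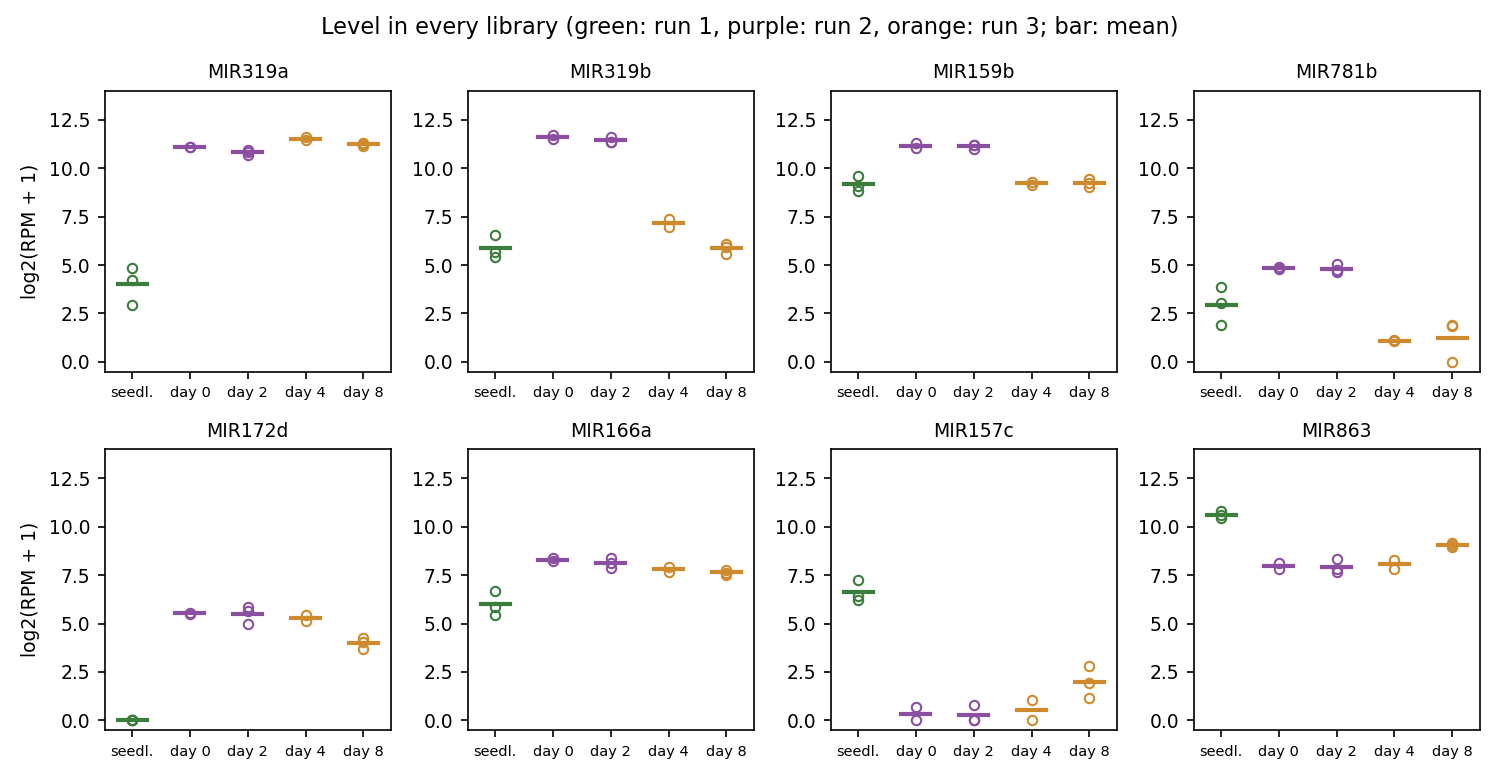
Level of 8 named genes in all 13 libraries as log2(RPM + 1) (vertical) by group, with 1 circle a library, a bar for the mean of the log values and colours for the 3 sequencing runs. MIR319b, MIR159b and MIR781b are high in the run of days 0 and 2 only, while MIR319a, MIR172d and MIR166a stay over the seedlings and MIR157c and MIR863 stay under them in every later library.

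Of the genes outside the rule on low values, 157 were at 0 in all 5 libraries and 61 had some reads but too few. Just outside the rule lay MIR839, MIR5656 and MIR406, at 0.800 and 1.25 RPM on day 0 and 0 in seedlings, and MIR5657. Just inside lay MIR170, MIR160b, MIR830 and MIR5635d, whose second highest library had 1.25 RPM. MIR399a, which the study also names, did not reach the rule.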

How the data were processed

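Small RNA of 3 seedling and 2 day 0 libraries, and of 8 later ones, was analysed. Trim Galore and STAR (versions: not given in the sources used here) were the authors' tools, with TAIR10 as the genome. From STAR's gene counts, which use reads with a single place only, the authors computed the deposited RPM of each miRNA gene, relative to the mapped reads. RNA and library kits differ between the study's methods and the sample labels. A deposited signal table of RPM after the authors' quantile normalization served as an alternative. Not used were 3 library columns without a sample, 1 of them named as day 0, and 5 pooled columns. The deposited table names a sequencing run at the first library of each block only, and runs were carried down.

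All 395 values above 0 were whole multiples (tolerance 0.1) of the RPM of 1 read, which gave the depth. Differences were tested on log2(RPM + 1), which understates low genes, with limma 3.58.1 (R 4.3.3, intensity trend, 1 term per group, all 13 libraries), Benjamini-Hochberg over 107 genes, threshold 0.05. The fit was tested on simulated data with the same noise in every library besides counting error and without a run effect. That test does not cover a wider spread of the seedlings or the run. Ratios of pooled reads have exact (Clopper-Pearson) 95% intervals. Named are the 10 called genes per direction of largest difference without overlap and with a mean of at least 10 RPM, the 5 most abundant per group, loci of the short lists, those the study names and called genes at 0 in a whole group. Members and lists were chosen with earlier results of these data known. Alternatives were other scalings, pseudocounts, filters, a replicate block, array weights and each library left out.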

Additional observations from a re-analysis of the deposited data

How the results depend on the processing

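The count of 67 called genes stayed within 1.5 times in every alternative but the restriction to genes with a mean of at least 20 RPM, which tests 25 genes and called 22, 10 higher and 12 lower, in the fit of 13 libraries and in that of the 5 libraries by themselves (the second chosen after seeing the data). Requiring a counting interval that excludes 1, also chosen later, left 27 of the 43 genes called higher. The 5 libraries by themselves gave 51 calls, array weights for the seedlings 55, a pseudocount of 0.5 or 5 gave 65 or 66, median-ratio scaling 69, scaling to the miRNA reads 57 (68 with the unit kept), and no filter 69. Leaving out each library in turn gave 48 to 76 genes and 38 to 59 families, the lowest without day 0 library 1 and the highest without seedling library 2. The median difference of all genes, 0.74, became 0.51 with median-ratio scaling, 0.32 with a pseudocount of 5 0.39 with scaling to the miRNA reads in the unit kept, 1.42 with that scaling where the unit is not kept and -0.56 for the genes of at least 20 RPM, so small differences are relative to such a shift. Of the called genes, 36 kept their call in each of up to 15 alternatives, 21 higher and 15 lower. The wider filter, no filter and the alternatives chosen later are not among the 15. These 36 include genes that met the RPM rule through 1 group alone, such as MIR172d, MIR858a, MIR157c and MIR156a. Calls of such genes support nothing, however many alternatives keep them.

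The replicate numbers 1 and 2 are shared by the groups, but the correlations of the deviations from the group means, 0.118 and -0.0746, do not show that they pair the libraries. With a replicate block 62 genes were called, 41 higher and 21 lower, and 49 families.

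Among the called genes named here only MIR159b changed its direction, at -0.76 in the authors' quantile-normalized values, and the cause was not tested. Uncalled genes of low level changed sign as well. With the replicate block MIR164b was at -0.12 and MIR162b at 0.091. With scaling to the miRNA reads MIR156j was at 0.031, MIR160b at 0.37 and MIR162b at 1.02, and with the unit kept MIR164b was at -0.16 and MIR391 at -0.023. MIR162b was at 0.087 with a pseudocount of 0.5, and MIR164b at -0.022 with a pseudocount of 5 and at -0.11 with median-ratio scaling. Leaving out each library in turn took MIR156j from -0.90 to 0.59, MIR164b from -0.80 to 0.99, MIR160b from -0.73 to 0.59, MIR162b from -1.36 to 0.58, MIR390a from -0.46 to 1.5, MIR168a from -0.82 to 1.52 and MIR391 from -0.45 to 0.64. The quantile-normalized values were not run for families.

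Depth limits the seedling side. A level under about 3.76 RPM in seedlings or 1.05 RPM on day 0 could be missed over a group. Reads of sequences with several places are in no value.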

Other observations

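MIR850 (chr4:7845707-7845927) and MIR863 (chr4:7846597-7846899) lie side by side on the plus strand of chromosome 4 in TAIR10.1 and were both lower on day 0, with fitted differences of -3.64 ± 0.36 and -2.63 ± 0.24 (SE). Their levels later in flower development were 7.56 ± 2.68, 21.7 ± 1.69 and 24.0 ± 4.42 RPM for MIR850 and 248 ± 60.0, 269 ± 61.4 and 537 ± 38.6 RPM for MIR863 on days 2, 4 and 8 (mean ± SD). Another tested locus near them on the plus strand, MIR5026 (chr4:7844496-7844688), was not called. It was at 5.45, 0 and 10.6 RPM in seedlings and 10.4 and 3.13 RPM on day 0. MIR398b (chr5:4691022-4691137) and MIR398c (chr5:4694694-4694808) also lie close together, on chromosome 5, and neither had a counted read in any of the 10 inflorescence libraries. Their 3p and 5p sequences each lie at 2 places in full, so reads of exactly these sequences could not be counted. These values therefore do not show that the miRNA was absent.

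For 6 genes the counting interval of the read ratio excluded 1 while the limma test made no call, MIR156d, MIR169a and MIR827 among them. MIR827 was at 128, 101 and 319 RPM in seedlings and 92.0 and 106 RPM on day 0, and its seedling libraries differed by more than the groups did.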
